A study of Homo sapiens with 6 samples.

Results

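The genes described are 7 human NKG2D ligand genes, MICA, MICB, ULBP1, ULBP2, ULBP3, RAET1E and RAET1G, taken by symbol from the deposited tables, 7 of 23340 usable gene names. All 7 were found, and the rule for choosing them used symbols and no measured value. RNA was sequenced from 3 human lines with 2 libraries per line, a 25M library and a deeper one: the colon adenocarcinoma line HT-29, whose label names stimulation with IFN-γ for 24 hours at 200 U per ml, the breast adenocarcinoma line MDA-MB-436, for which no agent is recorded, and the mammary epithelial line MCF10A, also with no agent recorded. The 3 lines grew in different media: McCoy's with fetal serum for HT-29, L-15 with fetal serum and without CO2 for MDA-MB-436, and DMEM/F12 with horse serum, EGF, hydrocortisone, cholera toxin and insulin for MCF10A. Untreated HT-29 was not analysed here, so line, medium and treatment cannot be told apart.

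NKG2D is an activating receptor of natural killer cells and of some T cells. Its ligands are cell-surface relatives of MHC class I that healthy cells carry sparsely and that infection, heat shock, DNA damage or transformation can induce. MICA and MICB, encoded within the MHC, are transmembrane proteins, whereas the ULBP and RAET1 genes form a separate cluster on the long arm of chromosome 6, and ULBP1, ULBP2 and ULBP3 encode proteins tethered by a lipid anchor. Proteases of the ADAM and MMP families can release the ligands from the cell surface.

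The libraries went against their labels for HT-29 and MDA-MB-436. KRT20, an intestinal keratin, had normalised read counts of 0 and 0.547 in HT-29-labelled libraries, 29900 and 30880 in MDA-MB-436-labelled libraries, and 0 and 1.47 in MCF10A. VIL1, which encodes the brush-border protein villin, had 0 reads in all HT-29-labelled libraries and all MCF10A libraries, against 2055 and 2198 normalised counts in MDA-MB-436-labelled libraries. VIM, the mesenchymal filament vimentin, stood at 36600 and 35270 in HT-29-labelled libraries, 16.5 and 7.39 in MDA-MB-436-labelled libraries, and 25900 and 26250 in MCF10A. The IFN-γ response genes GBP1, GBP4, CIITA, IRF1, CXCL10 and HLA-DRA were each lower in HT-29-labelled libraries than in MDA-MB-436-labelled libraries, with log2 fold changes from -5.17 for IRF1 to -7.55 for CIITA. Each was higher in HT-29-labelled libraries than in MCF10A and higher in MDA-MB-436-labelled libraries than in MCF10A. Groups are named below by label only, as HT-29-labelled (with IFN-γ), MDA-MB-436-labelled and MCF10A libraries, and every direction holds for the libraries as labelled. Recovered depth ran from 16.7 to 69.5M reads per library, and the labels of the deeper MCF10A library disagree on its intended depth. The protocol speaks of duplicate sequencing of samples at different depths and names no separate cultures. The pair of libraries of a line may therefore be 1 sample sequenced again, and every SD, SE and p-value below covers the spread within such pairs, which may be technical only. Each n of 2 counts libraries.

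**Figure D1:**
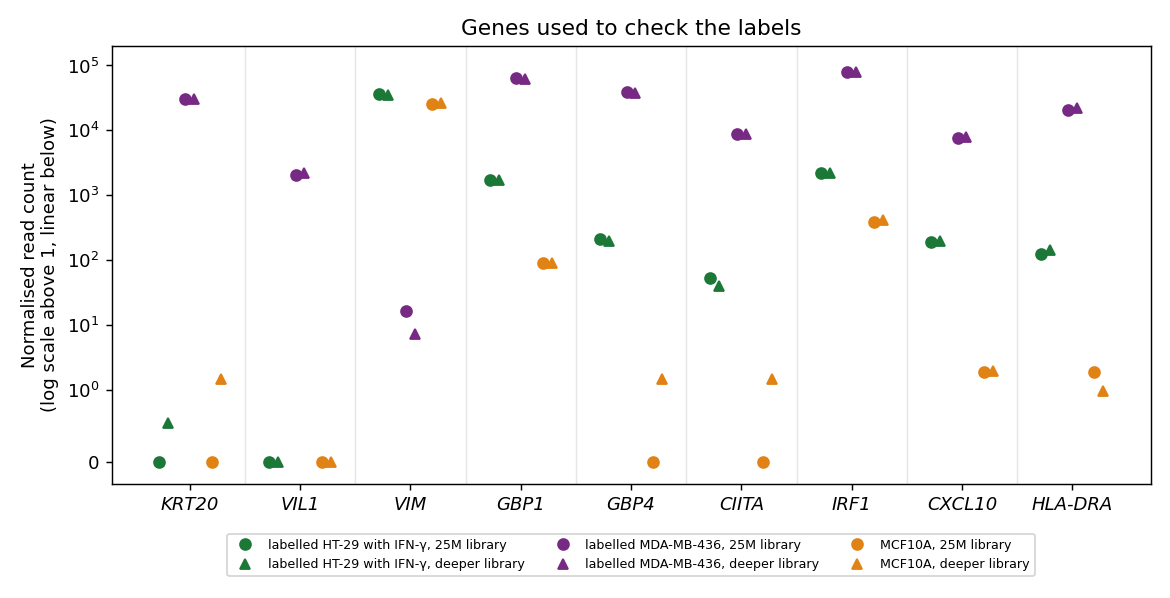
Normalised read counts (log axis above 1, linear below) of the genes used to check the labels, with 1 point per library: circles are 25M libraries and triangles the deeper ones. Only MDA-MB-436-labelled libraries held KRT20 and VIL1 at high levels, with 29900 and 30880 normalised counts of KRT20 and 2055 and 2198 of VIL1.

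MICA and MICB are shown first as sequence because their start regions are alike while their RNA levels were not. The 250 bases before each annotated start (RefSeq, GRCh38.p14, plus strand) lie at chr6:31403345-31403594 for MICA and chr6:31497895-31498144 for MICB, and 209 of 246 aligned bases were identical (85.0%). Capitals mark matches, on either strand, to a GC box (GGGCGG, or CCGCCC as read here), a CCAAT box (CCAAT, or ATTGG as read here) and a pair of heat shock units (GAANNTTC).
MICA: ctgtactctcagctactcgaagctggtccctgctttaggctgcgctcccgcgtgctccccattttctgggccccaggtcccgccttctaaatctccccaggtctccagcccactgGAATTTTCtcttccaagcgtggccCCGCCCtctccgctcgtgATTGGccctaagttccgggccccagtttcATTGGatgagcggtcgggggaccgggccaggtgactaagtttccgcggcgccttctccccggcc
MICB: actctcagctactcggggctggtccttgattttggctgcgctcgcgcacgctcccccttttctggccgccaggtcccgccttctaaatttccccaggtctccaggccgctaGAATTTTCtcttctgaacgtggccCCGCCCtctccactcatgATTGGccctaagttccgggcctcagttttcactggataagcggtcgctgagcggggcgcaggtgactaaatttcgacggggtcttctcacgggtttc
Both windows held 1 GC box and 1 heat shock pair, and MICA held 2 CCAAT boxes where MICB held 1. None of the marked matches overlapped another. Among 35116 RefSeq promoter windows of the same length, 42.6% held a GC box, 32.0% a CCAAT box and 5.78% the heat shock pair. Neither window held TTCNNNGAA, an ISRE-like motif or TATAAA, which 6.57%, 3.02% and 10.7% of windows held. Such matches describe letters, not bound sites. The window of ULBP1 (GRCh38.p14, plus strand, chr6:149963693-149963942) is shown for comparison, because that gene ranged from 0 to 1126 normalised counts over the libraries. It held 2 GC boxes, in capitals, and none of the other letters searched.
ULBP1: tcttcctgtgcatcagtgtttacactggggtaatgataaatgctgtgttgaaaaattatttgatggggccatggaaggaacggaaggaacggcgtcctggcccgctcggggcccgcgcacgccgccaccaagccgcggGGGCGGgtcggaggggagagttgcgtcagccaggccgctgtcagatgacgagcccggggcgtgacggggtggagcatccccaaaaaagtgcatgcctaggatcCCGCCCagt
RAET1E had 3 annotated start windows with no GC box, with CCAAT boxes in 2 of them and TTCNNNGAA in 1, and ULBP3 had 6 GC boxes in its single window.

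MICA, a transmembrane ligand, had 1338 and 1258 normalised counts in HT-29-labelled libraries, 798.8 and 804.4 in MDA-MB-436-labelled libraries, and 1283 and 1229 in MCF10A. HT-29-labelled libraries overlapped MCF10A, and MDA-MB-436-labelled libraries lay under both. MICB, its closest relative, had 1067 and 1066 normalised counts in HT-29-labelled libraries, 18.5 and 11.7 in MDA-MB-436-labelled libraries, and 580.5 and 617.1 in MCF10A. Its 3 groups did not overlap, and MDA-MB-436-labelled libraries held 9 and 19 reads of it.

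ULBP1, a lipid-anchored ligand, had 327.0 and 341.4 normalised counts in HT-29-labelled libraries, 1126 and 1123 in MDA-MB-436-labelled libraries, and 0 and 0.491 in MCF10A, which is 1 read in both MCF10A libraries together. ULBP2 had 916.6 and 897.9 normalised counts in HT-29-labelled libraries, 94.7 and 94.8 in MDA-MB-436-labelled libraries, and 91.8 and 96.2 in MCF10A. For ULBP2 only HT-29-labelled libraries stood apart. ULBP3 had 51.0 and 59.1 normalised counts in HT-29-labelled libraries, 146.2 and 126.9 in MDA-MB-436-labelled libraries, and 54.3 and 92.8 in MCF10A. The MCF10A libraries, with 29 and 189 reads, overlapped HT-29-labelled libraries and lay under MDA-MB-436-labelled libraries.

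RAET1E, also called ULBP4, had 165.0 and 152.1 normalised counts in HT-29-labelled libraries, 18.5 and 29.6 in MDA-MB-436-labelled libraries, and 1476 and 1444 in MCF10A. RAET1G, also called ULBP5, had 187.5 and 151.6 in HT-29-labelled libraries, 18.5 and 13.5 in MDA-MB-436-labelled libraries, and 430.7 and 429.6 in MCF10A. Both genes gave the same order, MCF10A above HT-29-labelled libraries above MDA-MB-436-labelled libraries, with no overlap of groups. In MDA-MB-436-labelled libraries they rested on 57 reads of RAET1E and 31 of RAET1G. The share of all genes whose groups do not overlap was not counted, so the lack of overlap does not set RAET1E, RAET1G or MICB apart. In the tests given below, from 46.5% to 53.4% of all tested genes were called between a pair of groups.

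**Figure D2:**
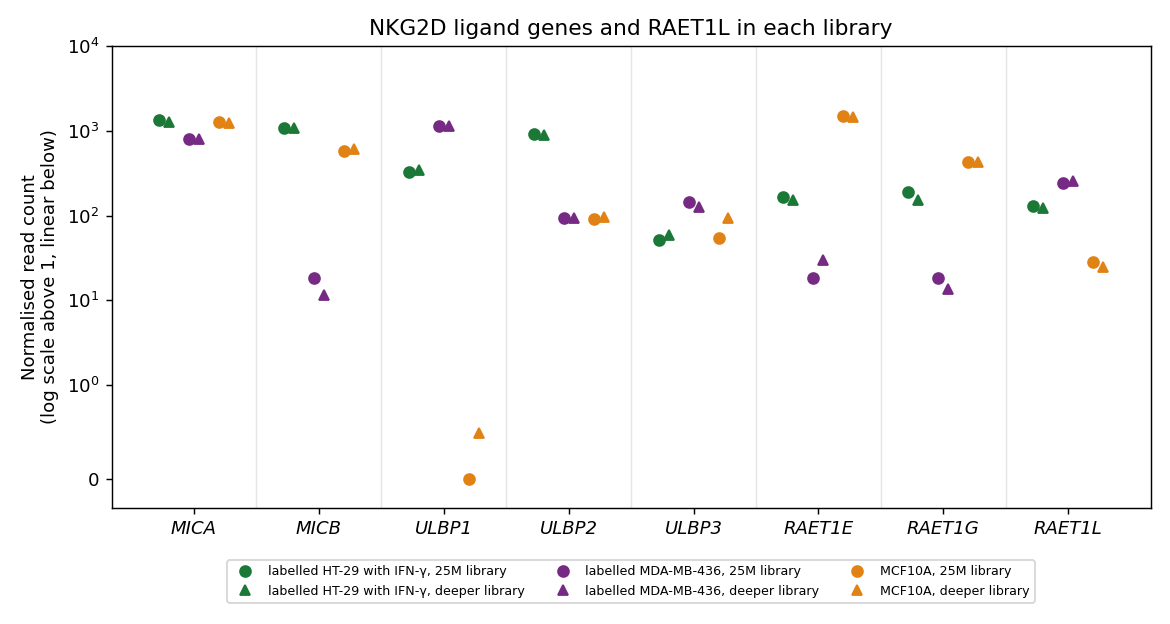
Normalised read counts (log axis above 1, linear below) of the 7 NKG2D ligand genes and of RAET1L, 1 point per library, circles for 25M and triangles for deeper libraries. ULBP1 lies at 0 and 0.491 in MCF10A, while MICB, RAET1E and RAET1G have their lowest points in MDA-MB-436-labelled libraries.

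RAET1L, also called ULBP6, is a further NKG2D ligand gene outside the 7, given because its sequence is close to ULBP2 and RAET1G. It had 129.0 and 122.6 normalised counts in HT-29-labelled libraries, 240.9 and 256.2 in MDA-MB-436-labelled libraries, and 28.1 and 24.5 in MCF10A. Its order was thus the reverse of that of RAET1G. Of the 50-base words of the ULBP2 transcript (GENCODE v29), 32.2% also occurred in transcripts of other genes of the tables, 382 of 1300 in RAET1L and 151 in RAET1G. The shared part was 16.8% for RAET1G, 6.85% for ULBP1, 2.47% for MICA and 2.04% for MICB, and 0% for the ULBP3 and RAET1E transcripts used. Of the ULBP1 words, 212 occurred in the pseudogene RAET1K and 61 in a ULBP3 transcript other than the one used for ULBP3. Reads were paired and 50 bases long, and the sources used here do not give the counting of reads from shared stretches, so the split among ULBP2, RAET1G and RAET1L is uncertain. Summed over these 3 genes, the normalised counts averaged 1203 ± 43.2 in HT-29-labelled libraries, 359 ± 7.45 in MDA-MB-436-labelled libraries and 550.4 ± 0.123 in MCF10A (SD, n = 2 each). RAET1K, singled out after its values were seen because of those shared words, had 376 reads in HT-29-labelled libraries, 23 in MDA-MB-436-labelled libraries and 8 in MCF10A, an order that differs from that of ULBP1. RAET1E and RAET1G overlap the antisense gene RAET1E-AS1 in GENCODE v29, and without a stated strand setting its reads cannot be told apart from theirs. RAET1E also overlaps the protein-coding gene AL355312.5 on its own strand, which a strand setting would not separate.

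Levels can be set beside each other between genes only per length, here as normalised counts per kilobase of the gene model implied by the deposited values. On that scale the 7 genes summed to 2559 ± 73.0 in HT-29-labelled libraries, 1250 ± 13.6 in MDA-MB-436-labelled libraries and 3217 ± 1.06 in MCF10A. MICA made up 37.3 ± 0.565% of the sum in HT-29-labelled libraries, 47.1 ± 0.745% in MDA-MB-436-labelled libraries and 28.7 ± 0.860% in MCF10A. It was the first gene in both groups labelled as tumour lines, where ULBP2 followed it in HT-29-labelled libraries (26.5 ± 0.370%) and ULBP1 in MDA-MB-436-labelled libraries (28.7 ± 0.252%). In MCF10A RAET1E came first, at 46.4 ± 0.685%, and it held 6.33 ± 0.184% in HT-29-labelled libraries and 1.97 ± 0.659% in MDA-MB-436-labelled libraries. MICB held 16.8 ± 0.473% in HT-29-labelled libraries, 0.488 ± 0.151% in MDA-MB-436-labelled libraries and 7.52 ± 0.328% in MCF10A. The ULBP and RAET1 genes among the 7 together held 45.9 ± 0.0919% in HT-29-labelled libraries, 52.4 ± 0.594% in MDA-MB-436-labelled libraries and 63.8 ± 0.533% in MCF10A. Those shares leave out RAET1L, which stood at 157.6 ± 5.71 per kilobase in HT-29-labelled libraries, 311.5 ± 13.6 in MDA-MB-436-labelled libraries and 33.0 ± 3.14 in MCF10A. With RAET1L the sum was 2716 ± 78.7, 1562 ± 0.0396 and 3250 ± 4.19 in the same order. These SDs are over 2 libraries, and in bulk RNA fewer cells expressing a gene and less RNA per cell cannot be told apart. The deposited normalised totals were 27664004 and 27458717 in HT-29-labelled libraries, against 34242773 and 34132437 in MCF10A. The order of the sums in these 2 groups therefore depends on the deposited scaling, and the sums were not recomputed with another scaling.

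**Figure D3:**
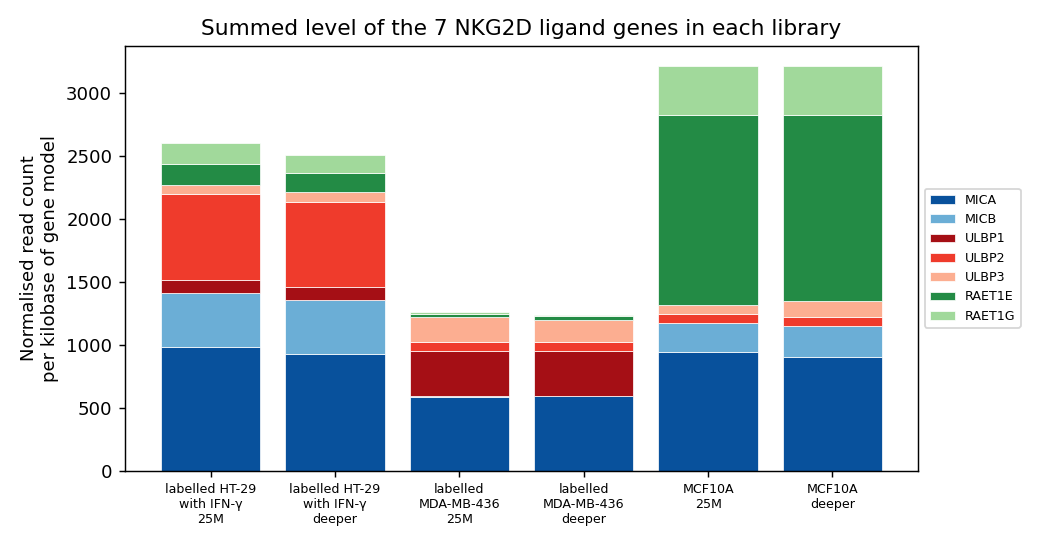
Stacked bars of the normalised read count per kilobase of gene model for the 7 NKG2D ligand genes, 1 bar per library. The bars average 2559 in HT-29-labelled libraries, 1250 in MDA-MB-436-labelled libraries and 3217 in MCF10A, and the largest segment of the MCF10A bars is RAET1E. All bars use the deposited scaling, on which the order of HT-29-labelled libraries and MCF10A depends.

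Differences were tested with limma across 15638 genes, and a call needed an adjusted p (Benjamini-Hochberg) under 0.05 together with a log2 fold change of 1 or more in size. All 7 ligand genes passed the filter on low values. ULBP1 passed it through HT-29-labelled and MDA-MB-436-labelled libraries and not through MCF10A, so a difference from MCF10A was built into its being tested. The 3 comparisons share libraries, so they are not independent of each other. The spread of each gene is estimated over all 6 libraries, so an SE can come largely from the group not compared. For HT-29-labelled against MDA-MB-436-labelled libraries this holds for ULBP1, at 0 and 0.491 in MCF10A, and for ULBP3, at 54.3 and 92.8 there. For HT-29-labelled libraries against MCF10A it holds for MICB, at 18.5 and 11.7 in MDA-MB-436-labelled libraries. In the same comparison it holds for RAET1E, at 18.5 and 29.6 in MDA-MB-436-labelled libraries, and in part for RAET1G.

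Between HT-29-labelled libraries and MCF10A, ULBP1 and ULBP2 were higher and RAET1E and RAET1G were lower. That is 4 of 7 genes called, where 46.5% of all tested genes were called in either direction, 28.4% higher and 18.1% lower. ULBP2 had an estimated log2 fold change of 3.26 (limma, SE 0.0922, adjusted p = 2.09e-08). The pooled read ratio of ULBP1 was 868, but with 1 read in MCF10A its 95% counting interval ran from 155 to 3.43e+04. RAET1E was 9.33-fold lower by pooled reads (interval 8.40 to 10.4), with an estimated log2 fold change of -3.20 (limma, SE 0.197, adjusted p = 1.61e-06). RAET1G had an estimated log2 fold change of -1.35 (limma, SE 0.185, adjusted p = 0.000214), a call that was lost in a test against a 2-fold difference (adjusted p = 0.128). Over ULBP2, RAET1G and RAET1L summed, the log2 fold change was 1.13 (adjusted p = 3.98e-07), the opposite direction to RAET1G alone.

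MICA, MICB and ULBP3 were not called in that comparison. MICA differed by 0.05 on the log2 scale (95% interval -0.07 to 0.16, adjusted p = 0.381 by limma), and by -0.04 with TMM scaling. MICB differed by 0.83 (SE 0.186, adjusted p = 0.00342 by limma), which passed the adjusted p and stayed under the fold threshold, and with scaling by library size alone it was called at 1.14. ULBP3 differed by -0.37 (95% interval -0.96 to 0.23, adjusted p = 0.213 by limma), and by 0.02 without the deeper MCF10A library. The median log2 fold change of the 7 genes was 0.05, beside 0.13 over all tested genes.

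Between MDA-MB-436-labelled libraries and MCF10A, MICB, RAET1E and RAET1G were lower and ULBP1 was higher. Here too 4 of 7 genes were called, where 49.2% of all tested genes were called, 25.6% higher and 23.7% lower. RAET1E was 53.7-fold lower by pooled reads (interval 41.4 to 71.0), MICB 45.9-fold (interval 31.6 to 69.3) and RAET1G 29.3-fold (interval 20.5 to 43.3). MICB had an estimated log2 fold change of -5.25 (limma, SE 0.186, adjusted p = 5.02e-08), RAET1E of -5.90 (SE 0.197, adjusted p = 3.60e-08) and RAET1G of -4.68 (SE 0.185, adjusted p = 9.50e-08). ULBP2, RAET1G and RAET1L summed differed by -0.61 (limma, adjusted p = 1.44e-05), under the fold threshold. That sum does not test RAET1G again, since RAET1G averaged 16.0 of its 359 normalised counts in MDA-MB-436-labelled libraries. ULBP1 had 2370 reads against 1, a pooled ratio of 2889 (interval 518 to 1.14e+05).

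MICA differed by -0.65 (SE 0.0480, adjusted p = 4.50e-06 by limma), under the fold threshold, although MICA and MICB summed were called at -1.18 (adjusted p = 2.31e-08). ULBP2 differed by 0.01 (95% interval -0.20 to 0.23, adjusted p = 0.920 by limma). ULBP3 differed by 0.93 (SE 0.255, adjusted p = 0.00973 by limma), under the fold threshold. Leaving out 1 library moved ULBP3 both ways: it was called at 1.31 without the deeper MCF10A library and at 1.03 without the deeper MDA-MB-436-labelled library, and not called at 0.55 without the 25M MCF10A library (adjusted p = 0.0394) or at 0.83 without the 25M MDA-MB-436-labelled library (adjusted p = 0.0529). It was 0.59 with edgeR, 0.58 with limma-voom and 0.70 with reads thinned to equal depth (adjusted p = 0.124), and was called with none of these. The median of the 7 genes was -0.65, beside 0 over all tested genes. KRT14, a basal keratin at 225600 and 219000 normalised counts in MCF10A, stood at 91.5 and 2.74 in HT-29-labelled libraries and at 84.4 and 0.616 in MDA-MB-436-labelled libraries, the 25M library higher in each pair. KRT5, another basal keratin, stood at 235.5 and 77.2 in HT-29-labelled libraries, 123.5 and 3.69 in MDA-MB-436-labelled libraries, and 424100 and 416200 in MCF10A. In MDA-MB-436-labelled libraries MICB and RAET1G were also higher in the 25M library, and RAET1E was higher in the deeper one. The part of such traces in the low ligand counts was not tested.

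Between HT-29-labelled libraries and MDA-MB-436-labelled libraries, MICB, ULBP2, RAET1E and RAET1G were higher and ULBP1 and ULBP3 were lower. That is 6 of 7 genes, where 53.4% of all tested genes were called, 29.9% higher and 23.5% lower. MICB was 80.3-fold higher by pooled reads (interval 55.4 to 121.1), with an estimated log2 fold change of 6.08 (limma, SE 0.186, adjusted p = 2.14e-08). ULBP2 was 9.52-fold higher (interval 8.24 to 11.1), RAET1G 10.97-fold (interval 7.60 to 16.4) and RAET1E 5.76-fold (interval 4.35 to 7.74). ULBP2, RAET1G and RAET1L summed were called at a smaller log2 fold change of 1.74 (limma, adjusted p = 2.57e-08). ULBP1 was 3.33-fold lower (interval 3.07 to 3.60), with an estimated log2 fold change of -1.75 (limma, SE 0.209, adjusted p = 8.49e-05). ULBP3 had an estimated log2 fold change of -1.30 (limma, SE 0.255, adjusted p = 0.00166), a call that was lost with scaling by library size alone (-0.97) and in a test against a 2-fold difference (adjusted p = 0.286).

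MICA differed by 0.69 (SE 0.0480, adjusted p = 2.73e-06 by limma), under the fold threshold, and was called at 1.02 with scaling by library size alone. That scaling moved the median of all genes to 0.43 from 0.09 in this comparison, and to 0.44 from 0.13 for HT-29-labelled libraries against MCF10A. The median of the 7 genes was 2.71.

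**Figure D4:**
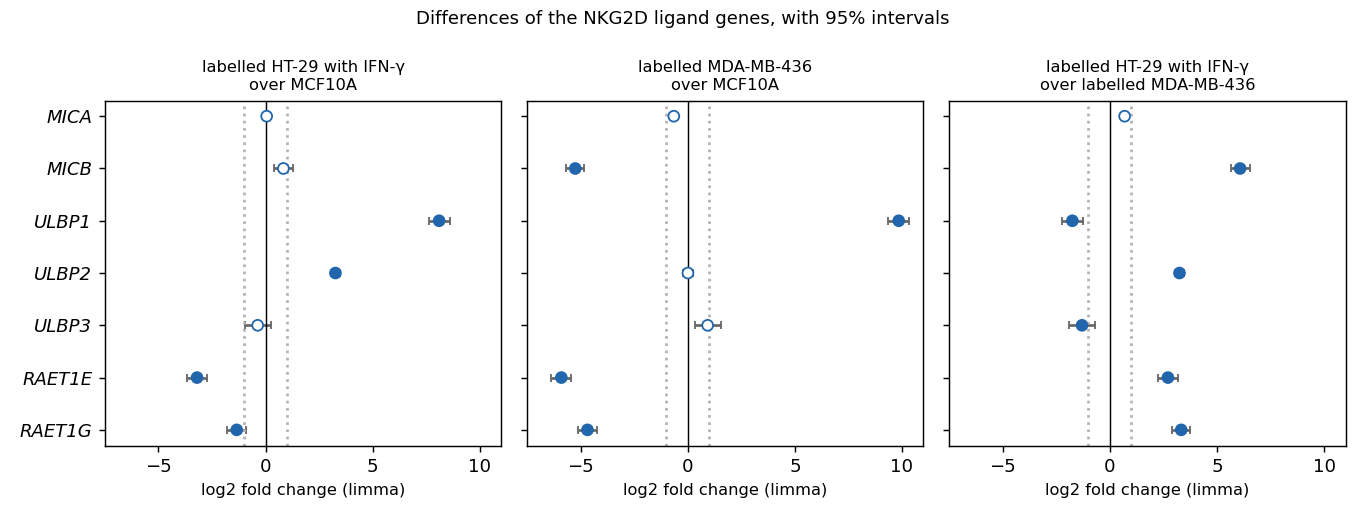
Log2 fold changes of the 7 NKG2D ligand genes from limma (x axis) in the 3 comparisons, with 95% intervals as bars, filled points for called genes and dotted lines at the fold threshold. MICA is open in all 3 panels, and MICB lies at -5.25 in the middle panel and at 6.08 in the right one.

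The genes whose pattern over the 6 libraries was nearest to each ligand, by Euclidean distance between mean-centred log2 values, differed from ligand to ligand. For MICA they were USP19 (distance 0.0677) and SRSF4 (0.0714), and for MICB they were COL5A2 (0.306) and FZD2 (0.330). MCF2L (0.431) and GSTT1 (0.572) were nearest to ULBP1, and both had 0 or 0.491 normalised counts in MCF10A. CXCL1 (0.110) and CNIH2 (0.179) were nearest to ULBP2, with CXCL1, a chemokine, at 3894 and 3781 in HT-29-labelled libraries, 374.7 and 386.8 in MDA-MB-436-labelled libraries, and 382.0 and 417.8 in MCF10A. The nearest genes were C3orf35 (0.254) and RSC1A1 (0.412) for ULBP3, KRT222 (0.490) and ARHGEF37 (0.499) for RAET1E, and LOC100288181 (0.361) and SORBS3 (0.439) for RAET1G. C3orf35 stood between 3 and 11.1 normalised counts in all libraries. KRT222 stood at 6 and 4.93 in HT-29-labelled libraries and at 0 in both MDA-MB-436-labelled libraries, so the likeness of these genes rests on few reads. Each distance rests on 6 libraries of 3 lines.

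Related genes were read from lists, each given for HT-29-labelled libraries against MCF10A, MDA-MB-436-labelled libraries against MCF10A, and HT-29-labelled libraries against MDA-MB-436-labelled libraries, in that order. Beside them, the medians over all tested genes were 0.13, 0 and 0.09 on the log2 scale, with 28.4% higher and 18.1% lower in the first comparison, 25.6% and 23.7% in the second, and 29.9% and 23.5% in the third. Of 5 neighbours of MICA and MICB that passed the filter, of 8 listed, 4 were higher and 0 lower in HT-29-labelled libraries than in MCF10A, 4 higher and 0 lower in MDA-MB-436-labelled libraries than in MCF10A, and 1 higher and 3 lower in HT-29-labelled than in MDA-MB-436-labelled libraries. The list's median log2 fold changes were 2.63, 3.40 and -1.50. TNF, counted as higher in all 3 comparisons, passed the filter only through HT-29-labelled libraries, at 12.0 and 19.7 normalised counts. It stood at 8.24 and 3.08 in MDA-MB-436-labelled libraries and at 1.87 and 0.982 in MCF10A. Other listed genes can also have passed the filter through 1 group only. HLA-B, a class I MHC chain, averaged 67290 ± 1660 in MDA-MB-436-labelled libraries against 199 ± 6.36 in MCF10A, 8.39 higher on the log2 scale, where MICB was lower. HCP5 is a long non-coding RNA whose GENCODE v29 span overlaps MICA on the same strand. It averaged 330.1 ± 2.17 in HT-29-labelled libraries, 2402 ± 120.5 in MDA-MB-436-labelled libraries and 52.8 ± 7.37 in MCF10A. The part of HCP5 reads in the MICA counts was not tested. Among 9 neighbours of the ULBP and RAET1 genes, RAET1L included, 3 were higher and 1 lower in HT-29-labelled libraries than in MCF10A, 4 higher and 3 lower in MDA-MB-436-labelled libraries than in MCF10A, and 4 higher and 2 lower in HT-29-labelled than in MDA-MB-436-labelled libraries. Median log2 fold changes of these neighbours were 0.46, -0.53 and -0.11. PPP1R14C, a phosphatase inhibitor gene, averaged 842 ± 14.4 in HT-29-labelled libraries, 10.3 ± 2.89 in MDA-MB-436-labelled libraries and 1759 ± 5.96 in MCF10A, the same order of lines as RAET1E and RAET1G.

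The receptor side was near the floor. KLRK1, which encodes NKG2D, had 0 reads in all 6 libraries, and its adaptor HCST stood between 5.54 and 14.4 normalised counts. None of the 5 NK and T cell markers (PTPRC, CD3E, NKG7, KLRD1 and GNLY) reached the filter.

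Of 9 tested ligands of other NK cell receptors, 1 was higher and 3 were lower in HT-29-labelled libraries than in MCF10A, 5 higher and 2 lower in MDA-MB-436-labelled libraries than in MCF10A, and 1 higher and 6 lower in HT-29-labelled than in MDA-MB-436-labelled libraries. The list's median log2 fold changes were -0.37, 2.55 and -2.14. HLA-E, ligand of the inhibitory NKG2A receptor, averaged 2347 ± 32.8 in HT-29-labelled libraries, 79280 ± 1284 in MDA-MB-436-labelled libraries and 5761 ± 136.5 in MCF10A. PVR, ligand of the activating receptor DNAM-1, averaged 1695 ± 21.1 in HT-29-labelled libraries, 25280 ± 407 in MDA-MB-436-labelled libraries and 4320 ± 94.8 in MCF10A. ICAM1, an adhesion ligand of leukocyte integrins, averaged 5327 ± 146.4 in HT-29-labelled libraries, 23470 ± 467 in MDA-MB-436-labelled libraries and 188 ± 1.25 in MCF10A.

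Of 9 tested genes for ligand shedding and its inhibitors, 3 were higher and 3 lower in HT-29-labelled libraries than in MCF10A, 1 higher and 5 lower in MDA-MB-436-labelled libraries than in MCF10A, and 4 higher and 1 lower in HT-29-labelled than in MDA-MB-436-labelled libraries. The list's median log2 fold changes were 0.29, -1.14 and 0.56. ADAM10, a sheddase of MICA and ULBP2, was called in none of the comparisons, with log2 fold changes of 0.19, 0.27 and -0.09 in the order given above. ADAM17 was higher in HT-29-labelled libraries than in MCF10A (log2 fold change 1.12). MMP14, a membrane-bound protease, averaged 31.6 ± 0.165 in HT-29-labelled libraries, 40.7 ± 5.16 in MDA-MB-436-labelled libraries and 6874 ± 105.6 in MCF10A. MMP2 went the other way in HT-29-labelled libraries, at 7867 ± 162.8, against 4.01 ± 3.06 in MDA-MB-436-labelled libraries and 141 ± 14.9 in MCF10A. TIMP3, on the inhibitor side, averaged 485 ± 37.1 in HT-29-labelled libraries, 3.09 ± 4.37 in MDA-MB-436-labelled libraries and 10940 ± 108 in MCF10A. PDIA6, the disulfide isomerase that assists MICA shedding, was higher in HT-29-labelled libraries, at 16310 ± 162 against 6009 ± 129 in MCF10A.

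Of 9 heat shock genes, 2 were higher and 3 lower in HT-29-labelled libraries than in MCF10A, 0 higher and 4 lower in MDA-MB-436-labelled libraries than in MCF10A, and 5 higher and 0 lower in HT-29-labelled than in MDA-MB-436-labelled libraries. Medians of the heat shock genes were 0.54, -0.62 and 1.41. HSPB1, a small heat shock protein, averaged 6932 ± 518 in HT-29-labelled libraries, 846 ± 8.61 in MDA-MB-436-labelled libraries and 28580 ± 176 in MCF10A. The 2 genes higher in HT-29-labelled libraries than in MCF10A were HSPA6 (log2 fold change 3.54) and HSF2 (1.67). Of 12 genes that sense DNA damage, 0 were higher and 8 lower in HT-29-labelled libraries than in MCF10A, 0 higher and 4 lower in MDA-MB-436-labelled libraries than in MCF10A, and 1 higher and 4 lower in HT-29-labelled than in MDA-MB-436-labelled libraries. Medians of the damage genes were -1.33, -0.58 and -0.42. Over all tested genes, 28.4% were higher and 18.1% lower in HT-29-labelled libraries than in MCF10A. ATM, the kinase that answers double-strand breaks, averaged 890 ± 59.6 in HT-29-labelled libraries, 926 ± 35.8 in MDA-MB-436-labelled libraries and 2255 ± 0.620 in MCF10A. Of 16 regulators of ligand transcription, 2 were higher and 1 lower in HT-29-labelled libraries than in MCF10A, 3 higher and 1 lower in MDA-MB-436-labelled libraries than in MCF10A, and 2 higher and 4 lower in HT-29-labelled than in MDA-MB-436-labelled libraries. Medians of the regulators were 0.16, 0.54 and -0.32. The regulators called were thus 3, 4 and 6 of 16, beside 46.5%, 49.2% and 53.4% of all tested genes. SP1, the factor that binds GC boxes, averaged 1956 ± 9.95 in HT-29-labelled libraries, 7888 ± 211 in MDA-MB-436-labelled libraries and 3403 ± 66.7 in MCF10A.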

How the data were processed

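Per the file headers, the deposited tables list normalised counts and RPKM by gene symbol. Per the submitters' processing notes, the tools included FastQC, STAR 2.2.0 and HTSeq and the build was hg19, with no roles given. Strandedness: not given in the sources used here, nor is the annotation. The deposited normalised counts (a signal, not raw counts) could be turned back into whole reads, since every library had its own step and 100% of its nonzero values were whole multiples of that step (tolerance 0.001). The deposited RPKM values are out of register with the symbols for 3 of the 7 ligand genes (ULBP1, ULBP2 and ULBP3, by 1 row). In register, the implied gene lengths (3137, 1341 and 731 bases) lie near those of GENCODE v29 transcripts (3142, 1349 and 735), so normalised counts carry the right symbols for these 3 genes. Among the label-check genes, KRT20 gave 1797 against 1737 and VIM, displaced by 1 row, 2126 against 2135. VIL1, also displaced by 1 row, gave 2718 against a nearest transcript of 1968, so length does not settle its symbol. RPKM served only for this check and for gene lengths. Of 23368 rows, 28 symbols that read as dates were left out.

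Tests used limma 3.58.1 (R 4.3.3) (trend and robust options) on log2(normalised count + 1) of genes with at least 10 normalised counts in at least 2 libraries, all 6 libraries in 1 fit with 3 residual degrees of freedom. Fold changes on this scale understate those of low genes. Pooled read ratios carry exact (Clopper-Pearson) 95% intervals, which cover counting error only. The scripts were tested on simulated data. Alternatives used edgeR 4.0.16 and DESeq2 1.42.0 on recovered reads, other scalings, filters and pseudocounts, and libraries left out. The median chi-square between paired libraries was 0.709 for HT-29-labelled libraries, 0.672 for MDA-MB-436-labelled libraries and 0.546 for MCF10A, where sampling alone gives 0.455. The ligand genes and lists were chosen with earlier results of these data known. Named from each other list are up to 3 genes per comparison and direction, those with the largest fold change among genes called with a mean of at least 100 in the higher group, along with the label-check genes, RAET1L and the 2 genes nearest in pattern to each ligand. ADAM10 and RAET1K were chosen after their values were seen. Some genes of the lists are not reported here by name.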

Additional observations from a re-analysis of the deposited data

How the results depend on the processing

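The number of the 7 ligand genes called ranged from 3 to 5 (4 in the main test) for HT-29-labelled libraries against MCF10A, from 4 to 5 (4) for MDA-MB-436-labelled libraries against MCF10A, and from 5 to 6 (6) for HT-29-labelled against MDA-MB-436-labelled libraries. Of 429 recomputed log2 fold changes, 407 kept direction and call, 6 gained a call, 4 lost one and 12 turned sign. They include the sums MICA + MICB and ULBP2 + RAET1G + RAET1L, each set against the single genes in it. Such a sum measures several genes and does not test 1 of them again. For MICB in MDA-MB-436-labelled libraries against MCF10A, -5.25 alone and -1.18 summed with MICA counted as kept. ULBP2 in MDA-MB-436-labelled libraries against MCF10A turned from 0.01 to 0 with scaling by library size and with thinned reads, to -0.05 with TMM scaling, to -0.06 with edgeR and limma-voom, to -0.02 without the 25M MCF10A library and to -0.61 with ULBP2, RAET1G and RAET1L summed. MICA in HT-29-labelled libraries against MCF10A turned from 0.05 to -0.04 with TMM scaling, edgeR and limma-voom, ULBP3 there from -0.37 to 0.02 without the deeper MCF10A library (-0.75 without the 25M one), and RAET1G there from -1.35 to 1.13 when summed. In that last sum ULBP2 averaged 907 of 1203 normalised counts in HT-29-labelled libraries, so the sum does not measure RAET1G alone. The cause of the sign turns in single genes was not tested.

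With a filter of 10 reads per 1M in 2 libraries, which left 11138 genes and removed ULBP3, 4390 genes were called against 7265 for HT-29-labelled libraries against MCF10A, 5079 against 7701 for MDA-MB-436-labelled libraries against MCF10A, and 5307 against 8350 for HT-29-labelled against MDA-MB-436-labelled libraries. Scaling by library size alone moved the split for HT-29-labelled libraries against MCF10A to 5445 higher and 1989 lower, against 4442 and 2823, and for HT-29-labelled against MDA-MB-436-labelled libraries to 5692 and 2797, against 4675 and 3675. A replicate block for labelled depth class gave 7271, 7715 and 8360 calls in the same order and changed no call of a ligand gene. Over all tested genes, deviations of same-depth libraries correlated between lines at -0.003, 0.007 and 0.028. Such a correlation describes all genes together and not single genes. KRT14 and KRT5 were higher in the 25M library of both groups labelled as tumour lines. At 1 read of ULBP1 in MCF10A, its fold against MCF10A is bounded by depth.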
